A study of Homo sapiens with 6 samples.

Results

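The genes described here are the nuclear-encoded subunits of the mitochondrial respiratory chain and of the ATP synthase that completes oxidative phosphorylation. They were chosen by annotated symbol alone, from the name families of complexes I to V, without NDUFA4 and NDUFA4L2, assembly factors, pseudogenes, non-coding RNAs and read-through genes. This gave 77 of the 19775 genes that had a probe set of their own, namely 33 of complex I, 3 of complex II, 6 of complex III, 17 of complex IV and 18 of complex V. Each gene was read by the probe set that was brightest over all 6 arrays. A further 5 genes, NDUFC2, NDUFS5, NDUFS8, UQCRH and UQCRHL, were read only by probe sets shared with other genes, and SDHB, UQCRFS1 and ATP5MGL were not analysed here.

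The cells were the 1833 subline of MDA-MB-231, a human breast cancer line. The treated group was transduced with S153E-RKIP in a lentiviral vector and kept in puromycin, and the series describes this mutant of RKIP as the stronger inhibitor of Raf-1. The control group carried the vector, per the series design. Each group had 3 arrays of total RNA, labelled biological replicates. The labels do not say whether they came from separate cultures, so the p-values rest on a spread that may in part be technical, nor whether the transduced cells were a clone or a pool. For the treated samples 1 label, the source name, mentions an HMGA2 shRNA, whereas title and characteristics give S153E-RKIP. The groups follow the titles. The study asks which genes RKIP regulates.

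The respiratory chain passes electrons from NADH through complex I, or from succinate through complex II, to ubiquinone, complex III, cytochrome c and complex IV, where oxygen is reduced. Complexes I, III and IV pump protons out of the mitochondrial matrix, and the ATP synthase, complex V, uses their return to make ATP. Most subunits are encoded in the nucleus and imported, and a few catalytic ones are encoded by mitochondrial DNA, so the chain is built from products of both genomes. Nuclear subunit genes are widely expressed, and several subunits of complex IV have second isoforms that are known from muscle, lung or testis.

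All levels below are log2 RMA signals, a microarray brightness on which a step of 1 is a doubling, and a difference is the treated mean less the control mean. The median probe set of an array lay at 5.60 to 5.67, and S153E-RKIP replicate 1 stood apart from the other arrays of its group on the second principal component of all genes (21.6% of the variance). PEBP1, which encodes RKIP, had a difference of -0.093 (SE 0.058, limma adjusted p = 0.473), and HMGA2 had one of -0.023 (SE 0.058, adjusted p = 0.882), and neither passed the test. It is not known here whether the PEBP1 probes read the introduced transcript, so every direction rests on the label. VIM, CD44, EGFR and CAV1, markers of this mesenchymal-like line, had mean levels from 11.37 to 14.44. The luminal markers PGR, FOXA1 and CDH1 lay between 4.04 and 4.35, whereas ESR1 and GATA3 had levels of 6.65 and 8.08. The 4 muscle markers ACTA1, MYH7, CKM and MB lay between 4.32 and 5.05, below the median of all genes (6.64), and the 3 blood cell markers measured, PTPRC, CD3E and HBB, between 3.93 and 6.41. Of the fibroblast and endothelium markers measured, PDGFRA and VWF had levels of 4.40 and 5.22, whereas PECAM1 had one of 7.22, above that median. The array measures relative amounts of bulk RNA, so fewer mitochondria-rich cells and less such RNA per cell cannot be told apart.

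None of the 77 subunit genes was called higher or lower on the arrays labelled S153E-RKIP. The fit across all genes (limma, Benjamini-Hochberg adjustment) called 1.9% of the 19775 genes at an adjusted p under 0.05, and the smallest adjusted p among the subunits was 0.293. At an unadjusted p under 0.05 there was 1 subunit, NDUFV2, against 15.7% of all genes. All 3 arrays of one group lay beyond all 3 of the other for 10 subunits, 9 higher and 1 lower, or 12.99%, against 20.1% of all genes. The shares of subunits with a small unadjusted p and with groups apart were thus below those of all genes. With 1.9% of all genes called, a list of 77 would hold few calls, so the absence of calls is close to that share. Low shares were not particular to the subunits. For the 75 mitochondrial ribosome genes these shares were 0% and 2.67%, and for the 35 proteasome genes 8.57% and 25.7%. The median difference was 0.011 over the subunits and 0.010 over all genes. Dim and bright genes differed in this, however, and most subunits were bright. Over the 9887 genes above the median level the median difference was -0.029, with 38.4% above 0, while over the 72 subunits above that level it was 0.010, with 63.9% above 0. The subunit median over all 77 was -0.0094 with array medians set equal and -0.0040 without S153E-RKIP replicate 1, so its sign was not stable. Setting array medians equal shifted every gene by the same amount, so it left the subunits in the same place relative to other genes. Of the 77, 50 had a difference above 0, and the count was 35 with equal array medians, 62 after a further quantile normalisation and 59 after removal of the intensity trend.

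The arrays bounded these differences closely. The median standard error was 0.058 for the subunits and 0.072 for all genes. Differences ran from -0.097 for NDUFA11 to 0.17 for ATP5MC1, and each 95% interval, taken 1 gene at a time, lay within a 1.3-fold change for all 77 genes. It lay within 1.2-fold for 68 and within 1.1-fold for 16. The farthest bound was the upper one of NDUFV3, at 0.38 or 1.298-fold. In the main setting and on the brightest probe set, a larger change of any single subunit thus fell outside its interval. Changes of a few percent could not be told from 0. The 1.3-fold bound did not hold in every alternative setting. Without S153E-RKIP replicate 2 the difference of NDUFV3 was 0.25 (SE 0.082), which puts its upper bound beyond 1.3-fold. These bounds do not hold for every dimmer probe set of the same genes. A dimmer probe set of ATP5F1C (mean 6.79) had a difference of -0.32 with an interval from -0.71 to 0.059, beside -0.0042 on its brightest. Of the 77 genes, 72 had a mean above the median of all genes, and the other 5, ATP5MF, COX6A2, COX6B2, COX7A1 and COX8C, were dim. No measure of background was used, so at that brightness an interval need not hold for the transcript.

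**Figure D1:**
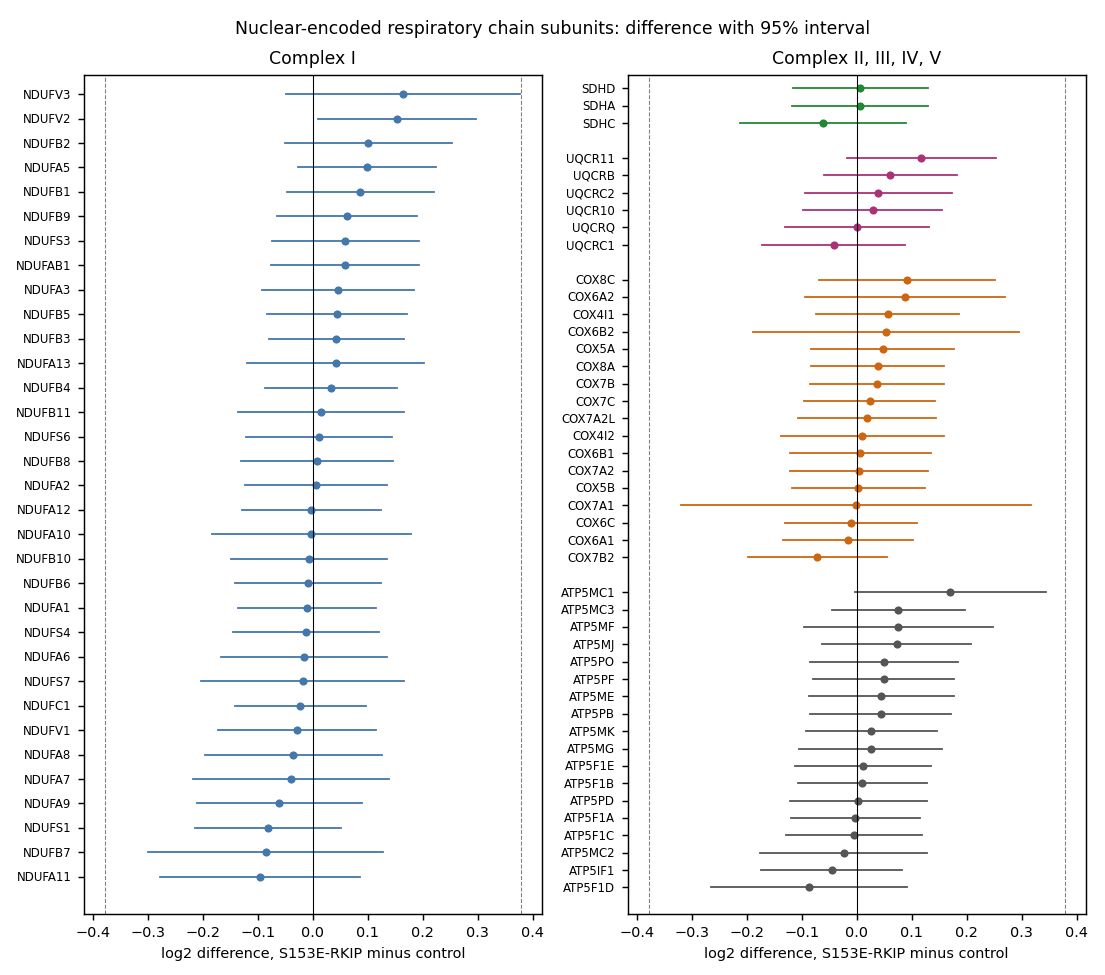
Log2 difference (S153E-RKIP minus control, horizontal axis) of the 77 subunit genes, with complex I on the left and complexes II, III, IV and V, separated by gaps, on the right; points are limma estimates, lines are 95% confidence intervals from 3 arrays a group, and dashed lines mark a 1.3-fold change. Every interval stays between the dashed lines, and NDUFV2 is the only gene whose interval does not reach 0.

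Complex I, the NADH dehydrogenase, had a median difference of 0.0054 over its 33 genes, 17 above 0 and 16 below. Its catalytic core carries the flavin and the iron-sulfur clusters, and 5 core genes were measured. NDUFV2, which encodes an iron-sulfur subunit of the NADH-oxidising arm, had levels of 11.12, 11.20 and 11.18 in control replicates 1, 2 and 3. In S153E-RKIP replicates 1, 2 and 3 its levels were 11.38, 11.23 and 11.36. The 3 treated arrays lay above the 3 controls, though replicate 2 did so by little. The difference of 0.15 (SE 0.063, 1.11-fold) had an unadjusted p of 0.0388 in limma and an adjusted p of 0.293. Over the alternative settings its adjusted p was 0.148 at the lowest. The other core genes had differences of -0.081 for NDUFS1, 0.059 for NDUFS3, -0.029 for NDUFV1, which encodes the flavin subunit, and -0.019 for NDUFS7, and thus lay on both sides of 0.

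The 28 accessory subunits of complex I, which surround the core and are needed for its assembly or stability, ran from -0.097 to 0.16 with a median of 0.0067. NDUFV3, which sits beside NDUFV2 in the NADH-oxidising arm, had control levels of 9.96, 9.79 and 9.97 and treated levels of 10.23, 9.90 and 10.09. Its groups overlapped, and the difference of 0.16 (SE 0.093, limma adjusted p = 0.432) was 0.25 without S153E-RKIP replicate 2, 0.087 without replicate 1 and 0.083 when its 2 probe sets were averaged, the dimmer of which gave 0.0023 by itself. NDUFA5 had control levels of 10.51, 10.45 and 10.49 and treated levels of 10.55, 10.59 and 10.61, which did not overlap. That difference was 0.099 (SE 0.055, adjusted p = 0.422). NDUFA11, a membrane subunit, had the lowest difference of the complex. It stood at 11.70, 11.68 and 11.80 in control and at 11.79, 11.53 and 11.57 in the treated group, so that S153E-RKIP replicate 1 lay with the controls. The difference was -0.097 (SE 0.080, adjusted p = 0.583), and without that array it was -0.18 (adjusted p = 0.245).

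Complex II is succinate dehydrogenase, the enzyme that the chain shares with the citric acid cycle. SDHA, the flavoprotein, had levels of 10.88, 10.85 and 10.88 in control and 10.89, 10.83 and 10.91 in the treated group, a difference of 0.0059 (95% interval -0.12 to 0.13). SDHD, a membrane anchor subunit, stood at 11.48, 11.52 and 11.54 in control and 11.54, 11.51 and 11.50 in the treated group, a difference of 0.0066 (95% interval -0.12 to 0.13). The groups of both genes overlapped almost fully on these probe sets. SDHC, the other membrane anchor, had a difference of -0.061 (SE 0.066, limma adjusted p = 0.689), and its 7 probe sets ran from -0.12 to 0.079. On its brightest probe set none of the 3 genes had groups that lay apart. A dim probe set of SDHD (mean 4.18) had all treated arrays above the controls. Its difference was 0.18 (95% interval 0.0086 to 0.36, limma adjusted p = 0.333 over all probe sets with 1 symbol).

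Complex III, the cytochrome bc1 complex, had a median difference of 0.034 over 6 genes. UQCR11, a small subunit, had control levels of 11.08, 11.09 and 11.13 and treated levels of 11.29, 11.19 and 11.17. The treated arrays were all higher, with replicate 1 highest, and the difference was 0.12 (SE 0.059, limma adjusted p = 0.375). UQCRB, which encodes a small subunit near the ubiquinone site, had control levels of 12.60, 12.58 and 12.59 and treated levels of 12.68, 12.61 and 12.66. These groups did not overlap either, and the difference was 0.061 (SE 0.053, adjusted p = 0.602). The core proteins UQCRC1 and UQCRC2 had differences of -0.042 and 0.039, and UQCR10 and UQCRQ of 0.029 and 9.7e-05. CYC1, the cytochrome c1 subunit of the same complex, and CYCS, the mobile carrier cytochrome c, do not share the name families and were read beside them. CYC1 had a difference of 0.069 (SE 0.061, adjusted p = 0.611). CYCS stood at 13.39, 13.40 and 13.37 in control and 13.49, 13.47 and 13.46 in the treated group, which lay apart by less than 0.1, with a difference of 0.087 (SE 0.052, adjusted p = 0.450).

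Complex IV, cytochrome c oxidase, had a median difference of 0.018 over 17 nuclear genes. The 11 subunits that are not restricted to certain tissues ran from -0.016 for COX6A1 to 0.057 for COX4I1. COX4I1, a regulatory subunit, stood at 12.85, 12.89 and 12.93 in control and 12.95, 12.90 and 12.99 in the treated group, and the groups overlapped. COX6A1 stood at 13.05, 13.04 and 13.05 in control and 13.05, 13.01 and 13.03 in the treated group. COX6B1, COX7A2, COX7A2L, which joins complexes III and IV into supercomplexes, COX7B and COX8A had differences from 0.0044 to 0.038, each with overlapping groups. The smallest adjusted p of these 11 was 0.659.

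The second isoforms of complex IV subunits were also read. COX7B2, the isoform known from testis, was the bright one among them, with levels of 11.21, 11.22 and 11.22 in control and 11.19, 11.08 and 11.16 in the treated group. It was the only subunit of the 77 whose treated arrays all lay below the controls, by a difference of -0.072 (SE 0.055, limma adjusted p = 0.556), and S153E-RKIP replicate 2 was lowest. COX4I2, the isoform known from lung and low oxygen, stood at 6.69, 6.69 and 6.60 in control and 6.73, 6.70 and 6.58 in the treated group, close to the median of all genes. The muscle isoforms COX6A2 and COX7A1 had control means of 5.15 and 4.38 and treated means of 5.24 and 4.38. COX6B2 and COX8C, known from testis, had differences of 0.054 and 0.092 at mean levels of 5.89 and 3.70. These 4 genes were below the median of all genes in both groups, and a difference at that brightness says little about a transcript. No isoform passed the test, and differences between isoforms of a pair were not tested.

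**Figure D2:**
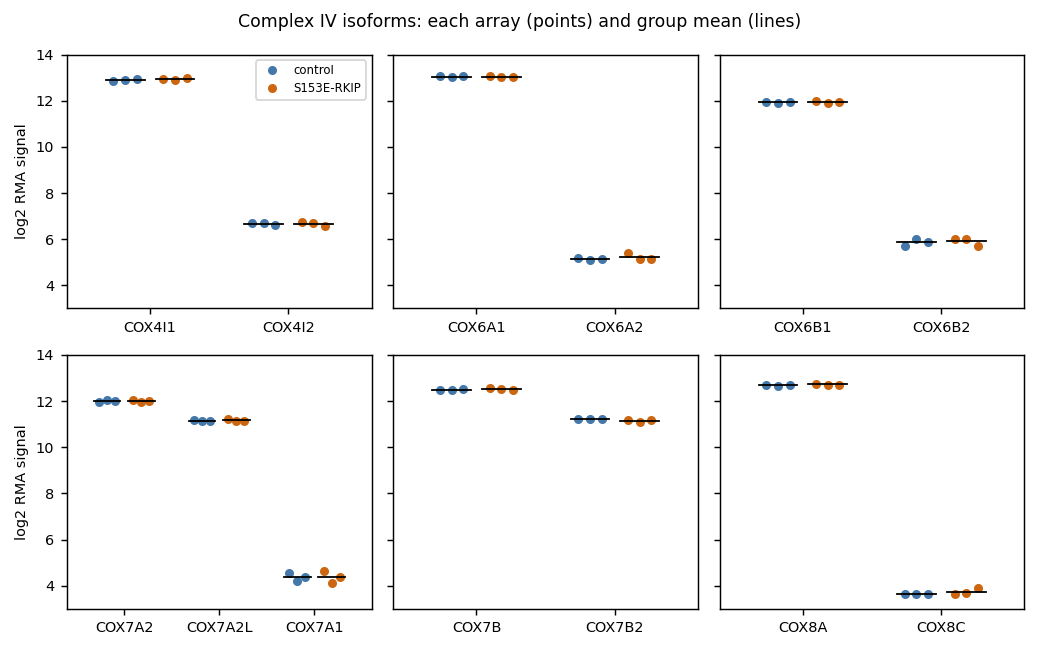
Log2 RMA signal (vertical axis) of the complex IV subunits that have isoforms, with 3 control arrays (blue points) and 3 S153E-RKIP arrays (orange points) for each gene and the group mean as a line. Control and treated means differ by less than 0.1 for every gene shown; heights of different genes come from different probe sets and are not comparable as amounts.

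Complex V, the ATP synthase, had a median difference of 0.026 over 18 genes. ATP5MC1, ATP5MC2 and ATP5MC3 encode the same mature c subunit, whose ring turns in the membrane, with different targeting peptides. ATP5MC1 had control levels of 11.33, 11.25 and 11.37 and treated levels of 11.59, 11.34 and 11.52. Replicates 1 and 3 of the treated group lay above all controls and replicate 2 lay among them, and the difference of 0.17 (SE 0.076, 1.13-fold) had a limma adjusted p of 0.326. Without S153E-RKIP replicate 2 the difference was 0.24 (adjusted p = 0.193). ATP5MC3 stood at 12.37, 12.34 and 12.39 in control and 12.46, 12.41 and 12.46 in the treated group, which did not overlap, with a difference of 0.076 (SE 0.053, adjusted p = 0.511), and ATP5MC2 had a difference of -0.024. The 3 c-subunit genes had differences of both signs.

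The F1 head, where ATP is made, and its central stalk are formed by ATP5F1A to ATP5F1E. ATP5F1A and ATP5F1B, the alpha and beta subunits, had differences of -0.0024 and 0.010, and ATP5F1C and ATP5F1E had ones of -0.0042 and 0.011. ATP5F1D, the delta subunit, had control levels of 9.28, 9.23 and 9.43 and treated levels of 9.34, 9.15 and 9.18, and the difference of -0.087 (SE 0.078, limma adjusted p = 0.617) was the lowest of the complex. Peripheral stalk genes, which hold the head still, ran from 0.0026 for ATP5PD to 0.050 for ATP5PO, and membrane subunit genes from 0.025 for ATP5MG to 0.075 for ATP5MF. ATP5IF1, the inhibitor that stops the enzyme from running backwards, had a difference of -0.045 (95% interval -0.17 to 0.083). None of these genes passed the test.

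Many of the subunits were highest together in 1 treated array. Relative to its control mean, the median subunit stood at 0.065 in S153E-RKIP replicate 1, -0.017 in replicate 2 and 0.014 in replicate 3. In control replicates 1, 2 and 3 it stood at 0.0028, -0.017 and 0.016. Thus S153E-RKIP replicate 1 was high, and the other 2 treated arrays lay within the range of the controls. S153E-RKIP replicate 1 was the highest of the 6 arrays for 48 of the 77 subunits (62.3%), compared with 24.4% of all genes. It exceeded replicate 2 in 71 of the 77, by a median of 0.099. That median was 0.014 over all genes and 0.036 over the 9887 genes above the median level. Within the control group, replicate 3 exceeded replicate 2 in 64 of the 77, by a median of 0.039, compared with 0 over all genes. S153E-RKIP replicate 1 was also the highest array for 59 of 75 genes of the mitochondrial ribosome and for 20 of 35 of the proteasome, while the other treated arrays stood differently there. The median ribosome gene was lowest in S153E-RKIP replicate 2 (-0.071), and the median proteasome gene stood at 0.049 in replicate 3, above every control array. The array that stood apart over all genes thus also moved with these differences between arrays, and its part in them was not tested. Without it no subunit was called, and 36 of the 77 had a difference above 0.

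**Figure D3:**
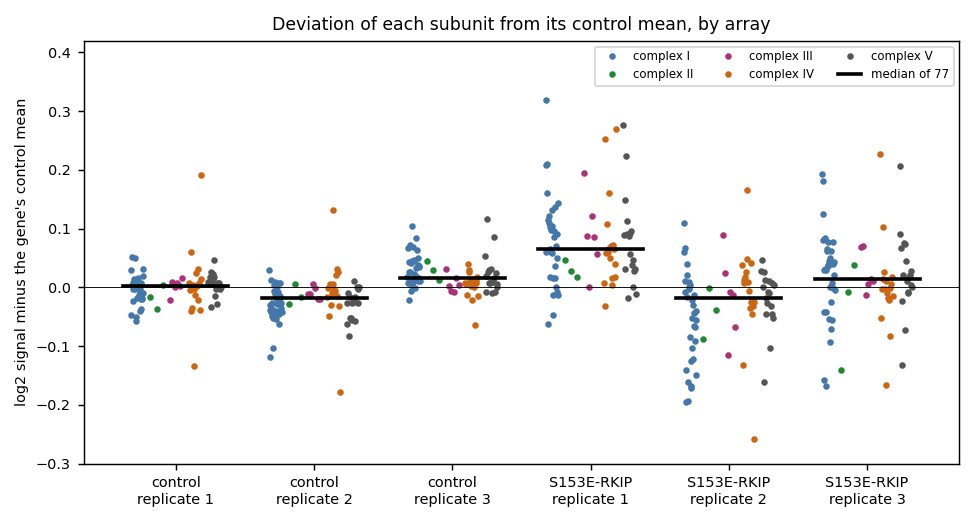
Log2 signal of each of the 77 subunit genes minus that gene's mean over the 3 control arrays (vertical axis), for each of the 6 arrays, coloured by complex, with the median of the 77 as a black bar. The bar is highest in S153E-RKIP replicate 1 (0.065), and the bars of S153E-RKIP replicates 2 and 3 lie level with those of control replicates 2 and 3.

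The other probe sets of the same genes gave the same count of calls. The 77 genes had 151 probe sets of their own, 44 genes having more than 1, and none of the 151 was called (limma, adjusted over all 41091 probe sets with 1 symbol), compared with 1.35% of the 41091. Of the 151, 3 had an unadjusted p under 0.05, compared with 14.1% of all those probe sets. Among the 40 dimmer alternatives that still exceeded the median of all genes, none had an unadjusted p under 0.05. The lowest adjusted p, 0.137, belonged to a dim probe set of NDUFA10 (mean 4.78, difference 0.29), while the brightest probe set of that gene had a difference of -0.0033. The 2 probe sets of NDUFC2, shared with a read-through gene, had differences of 0.025 for the brighter and 0.11 for the dimmer (mean 6.59, SE 0.080). The probe set of NDUFS5, shared with RPL10, had a difference of 0.038. That of UQCRH and UQCRHL had one of 0.097 (limma adjusted p = 0.502 over all probe sets). The 3 probe sets shared by NDUFS8 and microRNA genes had differences of -0.018 for the brightest, 0.039 and -0.13, and one shared by PTPMT1 and NDUFS3 had one of -0.095. A probe set shared by SDHA and 3 of its pseudogenes (mean 7.06) was lower in all treated arrays, with a difference of -0.26 (SE 0.077, unadjusted p = 0.00853, limma adjusted p = 0.209 over all probe sets), while the probe set that SDHA has to itself had one of 0.0059. A bright probe set of ATP5MF, shared with ARMC2-AS1, had a mean of 12.16 and a difference of 0.047, in place of the dim one of its own (mean 5.38).

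Promoters of the subunits were compared for short motifs known from genes of the respiratory chain. Reference windows of 250 bases before to 50 bases after the start, from RefSeq on GRCh38.p14, matched 66 of the 77 genes in 79 windows. On either strand, the letters GCGCATGCG, the core of the site of nuclear respiratory factor NRF1, occurred in 11 of the 79 windows (13.9%) and in 1.92% of all 35116 windows. CCGGAAG, the core of the site of GABP and other ETS factors, occurred in 20 (25.3%) and in 10.3% of all windows, and AAGATGGCG, a YY1 site, in 9 (11.4%) and in 1.75%. The E-box CACGTG occurred in 7 (8.86%) and in 7.26%, and TCAAGGTCA, a site of ERR-alpha, in 1 and in 0.353%. Each motif was searched by itself, and the NRF1 letters overlap their own reverse complement. The windows of ATP5PF, COX6A1 and SDHD held both NRF1 and GABP letters before the start, and these stretches, up to the start, are shown because they put both motifs in genes of 3 different complexes. Capitals mark the 2 motifs. They lie on GRCh38.p14 at chr21:25735055-25735194 (minus strand) for ATP5PF, chr12:120437874-120438112 (plus strand) for COX6A1 and chr11:112086743-112086872 (plus strand) for SDHD, and each runs 5′ to 3′ on the strand of its gene.
ATP5PF: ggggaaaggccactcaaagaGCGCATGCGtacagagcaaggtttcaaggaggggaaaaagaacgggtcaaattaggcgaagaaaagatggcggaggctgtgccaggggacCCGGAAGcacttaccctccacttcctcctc
COX6A1: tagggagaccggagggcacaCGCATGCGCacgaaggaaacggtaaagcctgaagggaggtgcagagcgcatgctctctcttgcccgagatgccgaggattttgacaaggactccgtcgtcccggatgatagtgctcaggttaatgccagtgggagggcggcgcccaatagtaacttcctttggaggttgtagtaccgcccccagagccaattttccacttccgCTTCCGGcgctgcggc
SDHD: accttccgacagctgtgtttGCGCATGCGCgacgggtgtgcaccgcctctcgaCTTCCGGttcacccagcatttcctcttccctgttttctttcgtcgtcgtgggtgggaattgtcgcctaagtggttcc

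Since no subunit was called, none with a motif in its window was either, which says nothing about the motifs. Over all 77 subunits the differences ran from -0.097 to 0.17 (median 0.011). The 11 genes with NRF1 letters had differences from -0.035 to 0.099 (median 0.0066), the 19 with GABP letters from -0.086 to 0.12 (median 0.0067), and the 8 with YY1 letters from -0.061 to 0.049 (median -0.018). For the 7 genes with the E-box they ran from -0.097 to 0.17 (median 0.043), and SDHD was the only gene with ERR-alpha letters. ATP5PF itself, a peripheral stalk gene, had a difference of 0.049, COX6A1 of -0.016 and SDHD of 0.0066. Transcripts of the factors were measured too. GABPA, the DNA-binding chain of GABP, stood at 8.01, 8.09 and 8.05 in control and 7.92, 7.88 and 7.92 in the treated group, and its difference of -0.14 (SE 0.054, limma adjusted p = 0.263) did not pass. NRF1 had a difference of -0.13 (SE 0.067, adjusted p = 0.405), YY1 one of -0.0059, and MYC one of 0.017. PPARGC1B, a coactivator of these factors, had a difference of 0.17 (adjusted p = 0.352) and PPARGC1A one of -0.31 with an interval from -0.84 to 0.22, at levels below the median of all genes. Of the 17 regulators of mitochondrial biogenesis none was called and 1, GABPA, had an unadjusted p under 0.05.

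Apart from the NDUFA4 family, described last, no other list of mitochondrial genes had a called member, while the number with an unadjusted p under 0.05 varied between lists, beside 15.7% of all genes. Of 7 genes of mitochondrial DNA 1, ND6, had an unadjusted p under 0.05. COX1 and COX2 here are the annotation's names for the mitochondrial genes of 2 catalytic subunits of complex IV, with differences of 0.087 (SE 0.053) and 0.011 (SE 0.053). ND6, the complex I subunit that is read from the other DNA strand than the rest, stood at 9.21, 9.28 and 9.38 in control and 9.12, 8.92 and 9.001 in the treated group. All treated arrays of ND6 were lower, by -0.27 (SE 0.074, unadjusted p = 0.00556, limma adjusted p = 0.135), and it did not pass. Of 55 assembly factors none was called and 6 had an unadjusted p under 0.05, led by BCS1L, which inserts the iron-sulfur protein into complex III (0.20, SE 0.062, adjusted p = 0.177). Of 75 mitochondrial ribosomal proteins none was called and none had an unadjusted p under 0.05, and MRPL33 had the smallest adjusted p (0.372). Of 16 genes listed for the citric acid cycle 2 had an unadjusted p under 0.05. That list also holds genes of pyruvate dehydrogenase and PC, pyruvate carboxylase, which are not steps of the cycle itself. PC had a difference of -0.22 (SE 0.068, adjusted p = 0.175). Of 32 genes of protein import and cristae 1 had an unadjusted p under 0.05, MFN1, a mitofusin, with a difference of -0.15 (adjusted p = 0.285). Medians of these lists, the proteasome included, ran from -0.025 for the citric acid cycle to 0.033 for the proteasome. Of 35 proteasome genes, 1 was called, PSMB9, an immunoproteasome subunit (0.29, SE 0.054, limma adjusted p = 0.0377). That call was lost when any 1 of the 6 arrays was left out (adjusted p from 0.0631 to 0.161), with equal array medians (0.0511) and without _x_at and _s_at probe sets (0.0522).

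**Figure D4:**
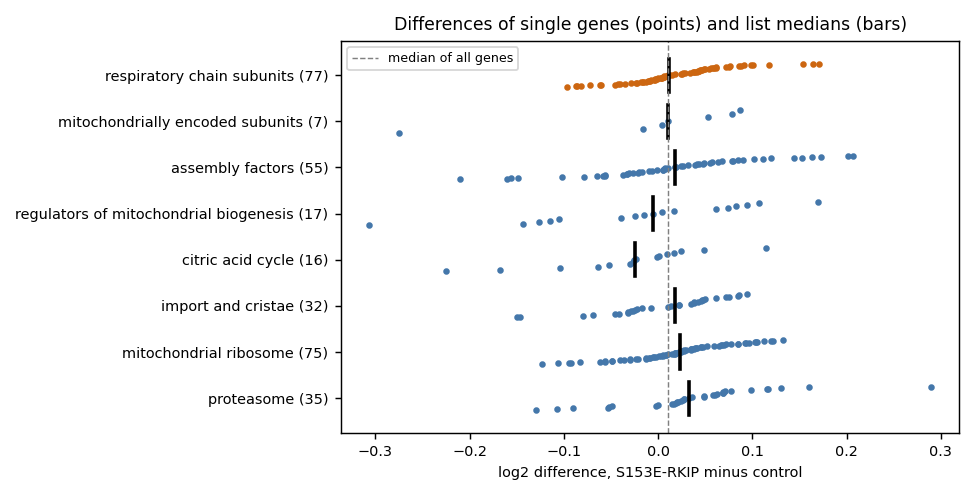
Log2 difference (horizontal axis) of each gene in the respiratory chain list (orange) and 7 other lists (blue), with the list median as a black bar and the median of all genes as a dashed line. The 77 subunits lie between -0.097 and 0.17, and their median is 0.011, beside 0.010 for all genes and -0.029 for the genes above the median level (not drawn).

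One relative of the subunits did change. NDUFA4, now named COXFA4, is a subunit of complex IV that the rule left out, and COXFA4L3 encodes a small mitochondrial protein known to take its place there. COXFA4L3 stood at 7.48, 7.92 and 7.63 in control and 10.02, 10.62 and 10.44 in the treated group, and rose by 2.68 (SE 0.16, limma adjusted p = 1.46e-04). COXFA4 stood at 12.37, 12.45 and 12.47 in control and 12.49, 12.46 and 12.45 in the treated group, with a difference of 0.036 (95% interval -0.092 to 0.16, adjusted p = 0.788). COXFA4L3 stayed called in each of the 17 alternatives fitted gene by gene, with differences from 2.55 to 2.85, and COXFA4 in none. COXFA4L2 had a difference of 0.025 (adjusted p = 0.880). The other subunits of complex IV, in which both proteins sit, had no called member.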

How the data were processed

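RNA of each sample was hybridised to 1 Affymetrix HG-U133 Plus 2.0 array, 3 per group. The deposited values are log2 signals per probe set, made by the authors with RMA per the submitters' processing notes. The method subtracts background, matches array quantiles and summarises probes, which sets the arrays' distributions nearly equal and removes any change in total RNA. Its version and any batch are not stated in the labels, and scanner output was not used here. Biotin-labelled target was made from 1 µg of RNA per the labels' protocols, which name a whole-transcript labelling kit although the array reads 3' ends.

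The table holds 54675 probe sets, and the 62 control probe sets were left out. In the platform annotation 41091 of the rest had 1 symbol, 1801 several and 11721 none, and 41037 matched the reference table by gene identifier. Each of 19775 genes was represented by its brightest probe set. Differences were tested in limma 3.58.1 under R 4.3.3 (lmFit, eBayes, two-sided, Benjamini-Hochberg over all genes) and called at an adjusted p under 0.05. The fit was tested on simulated data.

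The members, lists and motifs were chosen with earlier results of these data known. Named were called members, in each complex the 2 with the smallest p and the highest and lowest differences, complex IV isoforms, complex II genes, from each list the called genes and the one with the smallest p, and PEBP1 and HMGA2. Other genes were named after their values were seen. Figures were drawn with matplotlib 3.10.9.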

Additional observations from a re-analysis of the deposited data

How the results depend on the processing

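No subunit was called under any alternative, and the lowest adjusted p of any member among the 17 alternatives fitted gene by gene was 0.148 (NDUFV2, eBayes with trend and robust estimation). The median difference of the subunits ran from -0.0094 to 0.034 over the alternatives, and no alternative moved it from 0.011 by more than the spread between arrays (SD 0.032). That spread was larger than the median itself, so a change of its sign also fell within it. Of the 77 members, 47 changed sign in at least 1 alternative. The number with an unadjusted p under 0.05 was 1 in the main setting. It was 2 with probe sets averaged per gene, with either filter on dim genes and with the replicate block, 5 after quantile normalisation again or loess, 4 with trend and robust estimation, 3 with each probe set by itself, 0 with equal medians, and 0 to 3 with 1 array left out. Over all genes the 376 calls became 237 without _x_at and _s_at probe sets, 600 with trend and robust estimation, 147 at an adjusted p under 0.01, and 124 to 303 with 1 array left out, while the replicate block gave 332. Same-numbered arrays deviated together with correlations of 0.134, 0.259 and -0.0444, so the numbers were not taken as pairs. With the replicate block PSMB9 had an adjusted p of 0.0828 in limma. The causes were not tested. Signal over background was not measured, which limits the 5 dim members.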
